A study of Mus musculus with 56 samples.

Results

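Night-restricted feeding (NRF) placed the meals of mice in the dark period, so a mouse sampled at lights-off had gone without food since lights-on, and a mouse sampled at lights-on had just had its meal period. The anterior hypothalamus of 4 NRF mice at lights-off (zeitgeber time 12, ZT12) was compared with that of 8 NRF mice at lights-on, 4 at ZT0 and 4 at ZT24, across every gene of the table. These 12 mice belong to a series of 56. They were C57BL/6J females of 9 weeks, kept in 12 h of light and 12 h of darkness and fed on the schedule for 7 days, with chow offered from ZT12 to ZT0. The 28 mice on the opposite schedule, daytime-restricted feeding (DRF, food from ZT0 to ZT12), shared strain, sex, age, light cycle and days of feeding, and their 12 mice at the same times served for comparison. Each mouse gave 1 sample of dissected tissue at 1 time, and the ZT24 mice were other animals than the ZT0 mice. A gene was called only where it moved the same way against ZT0 and against ZT24. Time of day, light exposure and hours without food change together between these groups and cannot be told apart.

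The anterior hypothalamus holds the suprachiasmatic nucleus, the master circadian clock that light sets through the retina, and preoptic and paraventricular neurons that govern body temperature, stress hormones and energy use. In the molecular clock, BMAL1 (gene Arntl) and CLOCK bind E-box sequences and switch on the Per and Cry genes, whose proteins shut their own transcription down, while REV-ERB proteins (Nr1d1, Nr1d2) repress Arntl. The adrenal gland releases corticosterone with a daily peak around the onset of activity, and the hormone acts through the glucocorticoid receptor, a transcription factor. Body temperature also cycles, and heat-shock and cold-inducible genes are known to follow it.

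Depth was even. The 12 libraries held 29591266 to 32094068 normalized reads, and mice of the same group correlated at 0.995 to 0.998 across genes, with no identical pair. The values used are CPM, the reads of a gene scaled to the library total, recovered from the deposited numbers, and log2(CPM + 1), on which differences and tests were made. Markers of the dissected region were detected in all of these mice, the 12 anterior hypothalamus markers summing to 484 to 819 CPM at ZT12 and 595 to 871 CPM at lights-on. Thalamus markers, from a neighbouring region, were uneven. Their 6 genes summed to 514, 239.9, 422 and 159 CPM in the ZT12 mice and to 226, 180.3, 151 and 418 CPM in the ZT24 mice, while the ZT0 mice held 147 to 176 CPM. ZT12 mice 1 and 3 and ZT24 mouse 4 therefore stood apart, and the main gene groups below are also counted without them, a choice made after the data were seen that leaves 2 mice against 7. The lights-on groups differed from each other as well: 913 genes (5.66% of those tested) differed between ZT24 and ZT0, and 24.2% did so at an unadjusted p under 0.05. That count was unstable, at 12 to 1759 when single mice were left out (12 without ZT24 mouse 3), 257 with library trends removed, 116 with no variance trend and 0 on the log2 deposited value (limma, with 4170 at an unadjusted p under 0.05). Across genes that difference correlated with log2 transcript length at r = 0.48 and with GC content at r = -0.307. The ZT12 difference, taken from the mean of both lights-on groups, correlated with them at -0.08 and 0.06. Single mice, set against the mean of the 12, correlated with length at -0.302 to -0.105 (ZT0), 0.191 to 0.311 (ZT24) and -0.245 to 0.143 (ZT12). With GC content they correlated at 0.0247 to 0.274, -0.313 to -0.0221 and -0.285 to 0.464 in that order. The median standard deviation of a gene was 0.077, 0.0724 and 0.108. Genes are not independent replicates.

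At lights-off 949 of 16133 genes tested (5.88%) were higher and 1004 (6.22%) were lower than at lights-on, together 12.1% (limma's moderated test, Benjamini-Hochberg adjusted p under 0.05 over all genes). Most of these changes were small. On the log2(CPM + 1) scale the median difference was 0.24 among the higher genes and -0.25 among the lower genes, 80 genes rose by at least 0.5, 77 fell by as much, and 8 rose and 3 fell by at least 1. The median over all genes was 1.15e-05. Among the higher genes 443 (46.7%) had every ZT12 mouse above every lights-on mouse, and among the lower genes 403 (40.1%) had every ZT12 mouse below, against 2.98% and 2.73% of all genes. The plot of difference against expression level shows both arms. Without the 3 mice that stood apart, 216 genes were higher and 175 lower, and 361 of the 1953 calls were among them. Of the 100 named genes called, 40 lost their call without these mice and none changed direction: Rab37, Dnah6, Frmpd2, Fosl2, Cry2, Bhlhe40, Tef, Hlf, Six6, Nms, Prokr2, Pomc, Npy1r, Npy2r, Sesn3, Ppara, Insig1, Hsd17b7, Mvd, Hmgcs1, Acss2, Fads1, Tead1, Yap1, Pspc1, Psmb3, Psmf1, Psma7, Sox9, Aspa, Cldn11, Bcas1, Pdgfra, Slco1a4, Ly6c1, Cdh5, Foxj1, Ccdc153, Rarres2 and Kiss1. A further 2 genes, Marf1 and Tnrc6b, passed the test but moved in opposite directions against ZT0 and ZT24 and were not counted. Against ZT0 alone 288 (1.79%) were higher and 304 (1.88%) lower, and against ZT24 alone 896 (5.55%) and 1012 (6.27%).

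**Figure D1:**
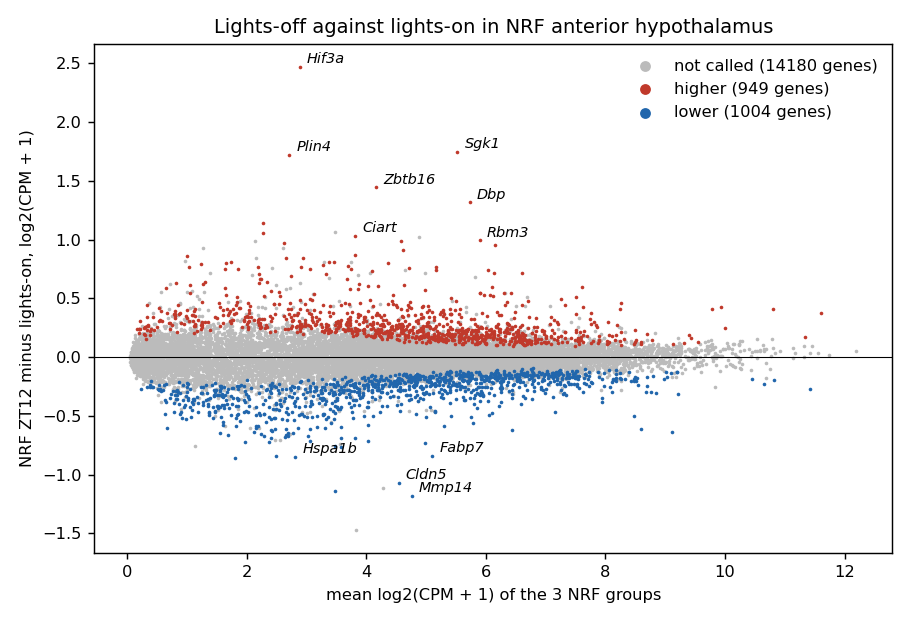
Difference between NRF ZT12 and lights-on (log2(CPM + 1), vertical) against the mean level of the 3 NRF groups (log2(CPM + 1), horizontal), 1 point per gene, for 16133 genes with called genes coloured. The 949 higher and 1004 lower genes lie on both sides of 0, with Hif3a, Sgk1 and Plin4 at the top and Mmp14 and Cldn5 at the bottom.

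Genes known to respond to glucocorticoids made up much of the top of the table. Of 22 receptors and targets listed, 14 were higher at lights-off, 1 was lower and 7 were not called, with a median difference of 0.39 on the log2(CPM + 1) scale against 1.15e-05 over all genes. The share called was 68.2%, beside 12.1% of all genes. This list, like the others below, was chosen with earlier results of these data known, so its counts are a description. Per1, 1 of the 14, is also on the list of clock repressors below and counts in both. Hif3a, a member of the hypoxia-inducible factor family, led the whole table, and Sgk1, the serum- and glucocorticoid-regulated kinase, came next. The receptors themselves were not called: the glucocorticoid receptor gene Nr3c1 differed by 0.01 ± 0.05 and the mineralocorticoid receptor gene Nr3c2 by 0.04.

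Hif3a (chr7:17031507-17062427, minus strand, GRCm38.p6) stood at 25.4, 20.3, 21.3 and 21.8 CPM in the 4 ZT12 mice and at 2.11 to 5.45 CPM (median 3.13) in the lights-on mice. No ZT12 mouse came near the lights-on range, and the difference was 2.47 ± 0.14, adjusted p = 1.34e-07. Sgk1 (chr10:21882184-21999903, plus strand) measured 103, 84.3, 108 and 114 CPM at ZT12 against 27.1 to 34.6 CPM (median 29.0) at lights-on, again without overlap (1.74 ± 0.07, adjusted p = 9.43e-09). Of the 13 windows, among 32851 that RefSeq gene starts give, whose 250 upstream bases hold the palindromic glucocorticoid response element GAACANNNTGTTC (0.0396%, both strands searched), 1 belongs to Sgk1 and to no other of the 18 listed genes with a window. It is shown because Sgk1 had one of the largest rises, with the element in capitals (chr10:21993640-21993889, plus strand, GRCm38.p6, 1 of 6 start sites of the gene):
Sgk1: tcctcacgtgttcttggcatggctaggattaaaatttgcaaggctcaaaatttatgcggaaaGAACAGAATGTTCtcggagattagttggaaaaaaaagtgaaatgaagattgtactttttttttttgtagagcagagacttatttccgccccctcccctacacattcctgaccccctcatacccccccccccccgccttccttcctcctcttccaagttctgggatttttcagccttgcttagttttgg
The match describes letters and not binding. Of 12717 tested genes with a window 2 held the element, 1 of the 754 higher and 1 of the 800 lower genes.

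Other glucocorticoid-responsive genes were higher as well, and of the 14 called higher Cebpd and Dusp1 had overlapping groups. Plin4, a lipid-droplet coat protein, had 21.4, 8.51, 12.0 and 14.7 CPM at ZT12 and 2.31 to 5.95 CPM (median 3.17) at lights-on (1.72 ± 0.19, adjusted p = 0.000107). Zbtb16, which encodes the zinc-finger factor PLZF, had 36.0, 28.1, 30.1 and 42.5 CPM at ZT12 and 8.6 to 14.7 CPM (median 11.9) at lights-on (1.44 ± 0.09, adjusted p = 5.49e-07). Tsc22d3, whose product is the glucocorticoid-induced leucine zipper, measured 110.2, 99.5, 116 and 111 CPM and 52.0 to 61.4 CPM, median 54.9 (0.96 ± 0.05, adjusted p = 1.07e-07). All 4 ZT12 mice exceeded the 8 lights-on mice for each of these genes, although mouse 1 held more Plin4 than the other 3. The metallothioneins, small proteins that bind zinc and copper, rose too: Mt2 stood at 139, 125, 149.9 and 128 CPM against 63.0 to 100.1 CPM (median 82.7), and Mt1 at 273, 255, 248 and 246 CPM against 141 to 206 CPM, median 168 (0.72 ± 0.09 and 0.59 ± 0.07 on the log2 scale). Klf9, a Krüppel-like transcription factor, rose by 0.72 ± 0.06, Nfkbia, the inhibitor of NF-kB, by 0.60, Klf15 by 0.42, Cebpd by 0.36, Fkbp5, a co-chaperone of the receptor, by 0.31 and the phosphatase gene Dusp1 by 0.31. Angptl4, an inhibitor of lipoprotein lipase that fasting also induces, went the other way (-0.67). Pdk4 (0.01), Ddit4 (0.21), Cdkn1a (-0.17), Sult1a1 (0.05) and Errfi1 (0.14 ± 0.05) were not called. Leaving out the 3 mice that stood apart left 11 of the 22 higher and 1 lower.

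**Figure D2:**
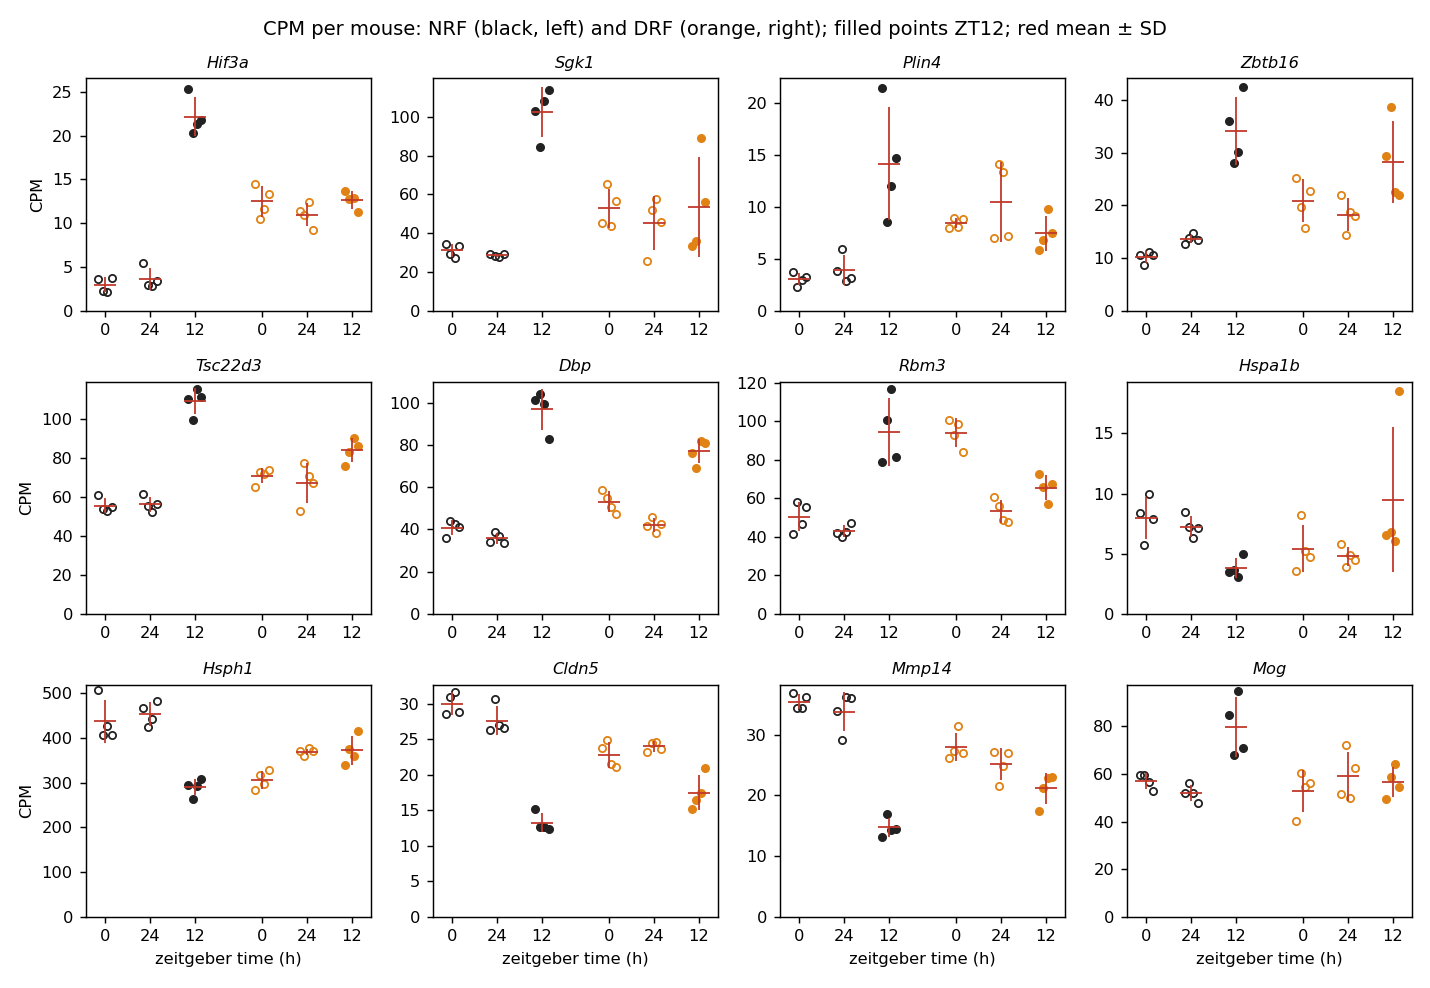
CPM of each mouse for genes named in the text, NRF in black at left and DRF in orange at right of each panel, at ZT0, ZT24 and ZT12 (horizontal, h), with ZT12 points filled and the mean ± SD of 4 mice in red. In NRF the ZT12 mice of Hif3a and Sgk1 lie above, and those of Cldn5 below, the 8 lights-on mice.

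The repressor arm of the clock was up at lights-off and its activator Arntl was down. Of 10 clock repressors 9 were higher and Cry1 was not called (0.15 ± 0.06, adjusted p = 0.0866), with a median of 0.39. Of 7 activator genes only Arntl passed the test, and it was lower. The shares called were 90.0% of the repressors and 14.3% of the activators, beside 12.1% of all genes. Dbp, the circadian bZIP activator that BMAL1 drives, had the largest change of any clock output.

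Dbp was read at 101, 104, 99.8 and 82.9 CPM in the ZT12 mice and at 33.4 to 44.0 CPM (median 37.9) at lights-on (1.32 ± 0.07, adjusted p = 5.32e-08). Ciart, the repressor CHRONO, gave 23.2, 22.7, 22.5 and 18.3 CPM against 8.46 to 11.4 CPM, median 10.2 (1.03 ± 0.08, adjusted p = 3.16e-06). Both sets were fully apart, with ZT12 mouse 4 the lowest of its group in each. Among the period genes, Per1 measured 83.4, 77.8, 69.1 and 74.3 CPM at ZT12 against 44.7 to 59.0 CPM, median 52.4 (0.54 ± 0.07, adjusted p = 0.000412). Per3 measured 70.1, 77.5, 77.2 and 79.7 CPM against 46.0 to 56.8 CPM, median 52.3 (0.55 ± 0.04, adjusted p = 2.1e-06). No mouse of one group entered the range of the other for Per1, Per2 or Per3, and Per2 rose by 0.40 ± 0.05. Nr1d1 and Nr1d2, which encode REV-ERB alpha and beta, rose by 0.55 ± 0.07 and 0.34 ± 0.05, Bhlhe41 and Bhlhe40, which encode DEC2 and DEC1, by 0.38 ± 0.04 and 0.24 ± 0.07, and Cry2 by 0.15 ± 0.03. Bhlhe40 overlapped between groups and lost its call without any one of ZT12 mice 1 and 3 and ZT24 mice 2 and 3 (0.18 to 0.23).

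Arntl fell from a lights-on range of 36.7 to 43.4 CPM (median 38.5) to 27.7, 27.9, 26.9 and 28.5 CPM at ZT12, with no overlap (-0.46 ± 0.04, adjusted p = 2.78e-05). Its partner genes Clock (-0.16 ± 0.05) and Npas2 (-0.18 ± 0.12), its paralog Arntl2 (-0.05 ± 0.07) and the ROR genes Rora (0.54 ± 0.20) and Rorb (-0.02 ± 0.09) were not called. Rora is also a thalamus marker, and its ZT12 values of 149, 74.8, 137 and 70.4 CPM were highest in mice 1 and 3. Of 8 bZIP factors and outputs 4 were higher and 1 lower (62.5% called, beside 12.1% of all genes). Usp2, a clock-driven deubiquitinase, rose by 0.75 ± 0.08, Hlf by 0.33 ± 0.10 and Tef by 0.10 ± 0.03, while Nfil3, the bZIP repressor that competes with Dbp for D-boxes, fell by 0.42 (SE 0.06). Hlf was highest in mice 1 and 3 and lost its call without any one of ZT0 mice 1, 3 and 4, ZT12 mice 1 and 3 and ZT24 mice 1, 2 and 3 (0.24 to 0.34). Tef lost its call without ZT12 mouse 1 or ZT24 mouse 2 (0.10 to 0.11). Wee1 (0.09 ± 0.05), Nampt (0.02 ± 0.05) and Rgs16 (0.05 ± 0.21) were not called. The counts higher were 7 of the 10 repressors and 2 of the 8 outputs without the 3 mice that stood apart, and Arntl and Nfil3 were still lower. The outputs counted 2 without ZT12 mouse 1 or ZT24 mouse 2.

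Upstream sequences of several repressors hold the elements that clock factors read. The E-box CACGTG occurs in the 250 bases before 6.02% of 32851 RefSeq gene starts and the D-box, searched as TTATGTAA or TTACGTAA, before 0.931%, both strands counted. Among the 8 clock repressors with a window, 4 held an E-box (Bhlhe41, Ciart, Cry1 and Per1) and 1 a D-box (Per3). Among the 7 bZIP factors and outputs with a window, 1 held an E-box (Tef) and none a D-box. Over all tested genes with a window 9.3% held the E-box, against 11.1% of the higher and 8.88% of the lower genes. The windows of Per1 (chr11:69098699-69098948, plus strand, 1 of 2 start sites), Ciart (chr3:95882229-95882478, minus strand) and Per3 (chr4:151044666-151044915, minus strand), all GRCm38.p6 from RefSeq, are shown 5′ to 3′. These genes were picked among those that rose without overlap and hold an element, and Bhlhe41, which also rose and holds an E-box, is not shown. E-boxes are in capitals for Per1 and Ciart and D-boxes in capitals for Per3:
Per1: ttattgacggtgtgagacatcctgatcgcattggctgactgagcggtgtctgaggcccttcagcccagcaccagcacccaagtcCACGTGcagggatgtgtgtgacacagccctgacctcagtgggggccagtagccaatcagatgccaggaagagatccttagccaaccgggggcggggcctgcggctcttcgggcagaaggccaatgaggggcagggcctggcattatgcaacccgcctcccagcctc
Ciart: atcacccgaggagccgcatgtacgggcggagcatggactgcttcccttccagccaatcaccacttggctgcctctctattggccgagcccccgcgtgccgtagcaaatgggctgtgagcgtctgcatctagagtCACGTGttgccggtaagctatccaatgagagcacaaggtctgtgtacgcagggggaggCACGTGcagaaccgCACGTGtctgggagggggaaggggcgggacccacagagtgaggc
Per3: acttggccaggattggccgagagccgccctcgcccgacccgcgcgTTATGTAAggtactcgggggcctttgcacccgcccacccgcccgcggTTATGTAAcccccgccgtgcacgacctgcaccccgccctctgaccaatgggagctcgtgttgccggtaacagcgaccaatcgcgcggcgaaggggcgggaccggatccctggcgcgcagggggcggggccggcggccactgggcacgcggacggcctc
Ciart carried 3 E-boxes, Per1 1 E-box and Per3 2 D-boxes in these stretches.

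Chaperone genes were lower at lights-off, and genes that cold induces were higher. Of 24 heat-shock genes, mostly cytosolic but with the mitochondrial Hspd1 and Hspe1 among them, none was higher and 18 were lower, with a median of -0.25. Both cold-inducible RNA-binding protein genes, Rbm3 and Cirbp, were higher. Of 19 chaperones and folding enzymes of the endoplasmic reticulum 12 were lower and 1, Herpud1 (0.16), was higher, with a median of -0.20. The shares called were 75.0% of the heat-shock list and 68.4% of the endoplasmic reticulum list, beside 12.1% of all genes.

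Rbm3 was found at 78.8, 101, 117 and 81.2 CPM at ZT12 and 39.9 to 58.1 CPM (median 44.5) at lights-on (0.99 ± 0.10, adjusted p = 4.98e-05), and Cirbp at 86.7, 101, 95.5 and 82.6 CPM and 46.4 to 65.0 CPM, median 52.2 (0.74 ± 0.08, adjusted p = 7.78e-05). Every ZT12 mouse exceeded every lights-on mouse for both. Hsph1, the HSP110 nucleotide exchange factor, went from a lights-on range of 407 to 508 CPM (median 435) down to 294, 265, 294 and 309 CPM (-0.62 ± 0.06, adjusted p = 2.88e-05), and Chordc1, an HSP90 co-chaperone, from a range of 84.4 to 121 CPM (median 99.6) down to 58.6, 55.4, 69.5 and 73.4 CPM (-0.62 ± 0.09, adjusted p = 0.000429). The inducible HSP70 genes Hspa1b (3.49, 3.61, 3.05 and 4.96 CPM against 5.71 to 9.92 CPM, median 7.54) and Hspa1a (11.6, 11.5, 10.1 and 13.0 CPM against 15.4 to 19.7 CPM, median 18.3) fell by 0.85 and 0.58 on the log2 scale. These 4 heat-shock genes had no overlap between groups. Hspa1a and Hspa1b are near-identical, so how reads were divided between them is uncertain. Dnaja4, an HSP40 co-chaperone outside the list, gave 42.3, 39.3, 41.7 and 41.6 CPM against 51.9 to 56.1 CPM, median 53.2 (-0.37 ± 0.03, adjusted p = 2.64e-05). Hspa4l (-0.20 ± 0.06) and the mitochondrial chaperonin gene Hspd1 (-0.16 ± 0.06) were not called, whereas Hspe1, the co-chaperonin of Hspd1, was lower (-0.25 ± 0.04, adjusted p = 0.00243) at 53.4, 49.7, 51.2 and 53.0 CPM against 54.8 to 70.8 CPM (median 61.8). Hspe1 was added to the named genes after its promoter had been seen. The 3 mice that stood apart left out, 8 heat-shock genes were lower and both cold-inducible genes higher. Against ZT0 alone 11 heat-shock genes were lower.

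The heat-shock element, searched as GAANNTTCNNGAA or TTCNNGAANNTTC on both strands, occurs in 0.466% of the upstream windows and in those of Hspd1 and Hspe1 among 18 listed genes with a window. Hspe1 is shown as the one of these that passed the test, with 2 overlapping matches in capitals (chr1:55087898-55088147, plus strand, GRCm38.p6, RefSeq):
Hspe1: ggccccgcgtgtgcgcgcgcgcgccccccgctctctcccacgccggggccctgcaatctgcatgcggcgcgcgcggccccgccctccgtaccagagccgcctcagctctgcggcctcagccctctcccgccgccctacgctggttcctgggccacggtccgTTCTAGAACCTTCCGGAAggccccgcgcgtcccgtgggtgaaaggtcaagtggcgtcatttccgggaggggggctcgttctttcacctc
For the other genes, no match says only that these letters are not within these 250 bases. The heat-shock element was held by 0.44% of tested genes with a window, by 0.398% of the higher and by 0.5% of the lower genes.

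In the endoplasmic reticulum, Sdf2l1, a partner of the HSP70 chaperone BiP, dropped from a lights-on range of 9.09 to 13.6 CPM (median 10.1) to 5.89, 7.39, 5.59 and 7.45 CPM at ZT12 (-0.60 ± 0.09, adjusted p = 0.000959). The disulfide isomerases Pdia4 and Pdia6 fell by 0.40 and 0.34 and the secreted factor Manf by 0.32. ZT12 mice were all below lights-on mice for these 4 genes. Hspa5, which encodes BiP itself, differed by -0.30, Hsp90b1 by -0.31 and the lectin chaperone Calr by -0.31, all called lower. Sel1l (-0.10 ± 0.04) and Hyou1 (-0.13 ± 0.05) were not called. In the mice other than the 3 that stood apart, 6 of the 19 were lower and none was higher.

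**Figure D3:**
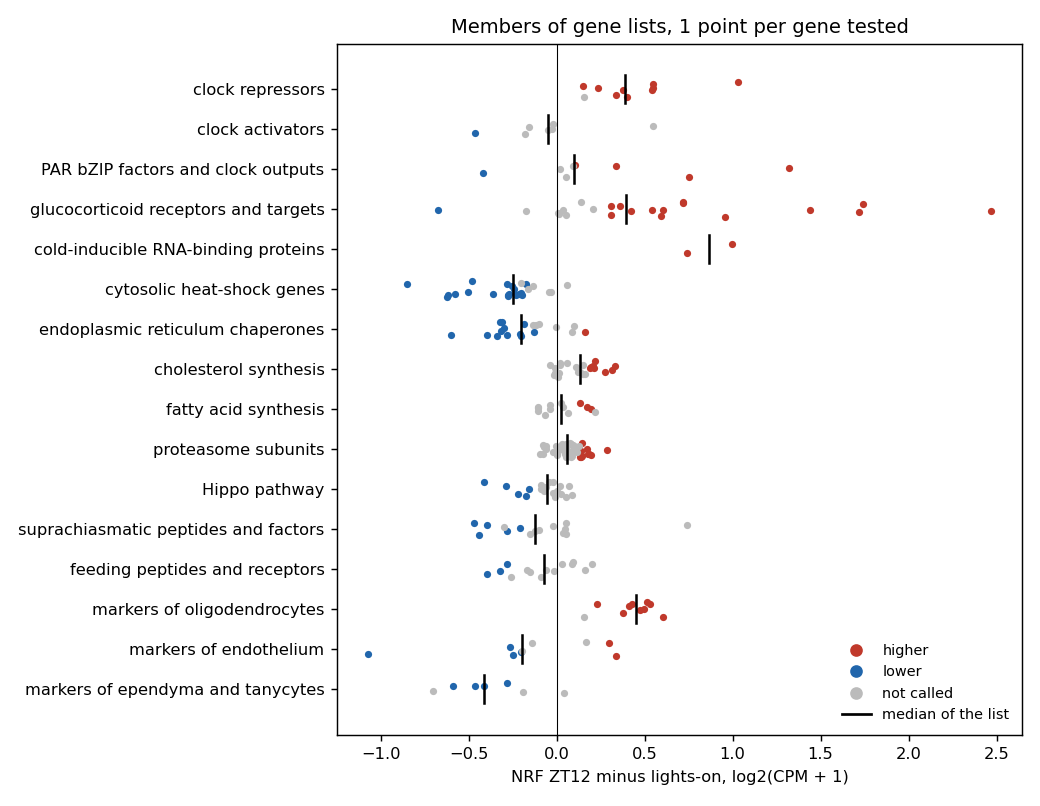
Difference between NRF ZT12 and lights-on (log2(CPM + 1), horizontal) of each tested member of selected gene lists (vertical), 1 point per gene, coloured where called. Glucocorticoid targets (14 of 22 higher) and clock repressors (9 of 10 higher) lie mostly right of 0, heat-shock genes (18 of 24 lower) and chaperones of the endoplasmic reticulum (12 of 19 lower) left of it.

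Myelin genes were higher at lights-off, and genes of ciliated ependymal cells were lower. Of 10 oligodendrocyte markers 9 were higher, with a median of 0.45, and of 7 markers of ependyma and tanycytes 4 were lower, with a median of -0.41. The shares called were 90.0% and 57.1%, beside 12.1% of all genes. In these whole-tissue libraries, fewer cells of a type and less RNA per cell cannot be told apart. The oligodendrocyte markers summed to 9119, 6929, 8813 and 7732 CPM in ZT12 mice 1 to 4 and to 5556 to 6909 CPM at lights-on, so that mice 1 and 3, which also held the most thalamus RNA, were highest and mouse 2 lay just above the highest lights-on mouse. The ependymal markers summed to 53.9, 76.1, 61.2 and 84.2 CPM in the same order and to 83.6 to 98.2 CPM at lights-on, with mice 1 and 3 the lowest. Only 2 oligodendrocyte markers and 1 ependymal marker were called when the 3 mice that stood apart were left out. The part of the thalamus RNA in these lists was not tested.

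Mog, a myelin surface protein, was at 85.01, 68.0, 94.8 and 71.1 CPM at ZT12 and 47.6 to 59.7 CPM (median 54.5) at lights-on (0.53 ± 0.08, adjusted p = 0.000551), and Mag, the myelin-associated glycoprotein, at 262, 208, 245 and 208 CPM and 135 to 175 CPM, median 163 (0.51 ± 0.07, adjusted p = 0.000214). ZT12 and lights-on mice did not overlap for either gene, and mice 1 and 3 were again the highest. Aspa, which breaks down N-acetylaspartate in oligodendrocytes, rose by 0.60 ± 0.10 and the tight-junction gene Cldn11 by 0.50 ± 0.09. Among 5 precursor markers Bcas1 (0.25 ± 0.06) and Pdgfra (0.15 ± 0.04) were higher, and Gpr17, which marks cells committed to differentiation, was lower at 87.3, 82.2, 79.2 and 90.7 CPM against 97.9 to 115 CPM, median 110.3 (-0.35 ± 0.05, adjusted p = 0.000575). Pdgfra lost its call without any one of ZT0 mice 2 and 4, ZT12 mice 1, 3 and 4 and ZT24 mice 1, 2 and 3 (0.13 to 0.15).

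Foxj1, the master regulator of motile cilia, measured 16.4, 16.8, 16.1 and 23.7 CPM at ZT12 and 20.3 to 29.2 CPM (median 26.1) at lights-on (-0.46 ± 0.10, adjusted p = 0.00844). Mouse 4 lay inside the lights-on range and the other 3 below it. Tmem212 (-0.59 ± 0.10), Ccdc153 (-0.41 ± 0.09) and Rarres2 (-0.28 ± 0.07) were the other ependymal genes called lower, and Rarres2 lost its call without ZT12 mouse 1 (-0.25). The tanycyte genes Rax (0.04), Col23a1 (-0.19) and Crym (-0.70) were not called. Dnah6, an axonemal dynein heavy chain, had 6.16, 6.93, 5.62 and 12.0 CPM against 10.2 to 15.4 CPM, median 14.6 (-0.76 ± 0.16, adjusted p = 0.00713), with mouse 4 again inside the lights-on range.

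Among genes of the blood-brain barrier, Cldn5 had the largest change. Cldn5, the main tight-junction protein of brain endothelium (chr16:18776847-18778262, plus strand), gave 15.2, 12.6, 12.7 and 12.4 CPM at ZT12 against 26.4 to 31.7 CPM (median 28.7) at lights-on (-1.07 ± 0.06, adjusted p = 1.18e-07). The groups were far apart, with mouse 1 the highest of the ZT12 mice. Among the 9 endothelial markers 4 were lower and 2 higher (66.7% called, beside 12.1% of all genes). The 9 together summed to 208 to 245 CPM at ZT12 and 229 to 257 CPM at lights-on. Cdh5, Pecam1 and Flt1 differed by -0.26, -0.20 and -0.25, and the transporter gene Slco1a4 and Ly6c1 by 0.34 and 0.30. Cdh5 lost its call without any one of ZT0 mouse 3, ZT12 mice 2 and 3 and ZT24 mouse 1 (-0.22 to -0.24), and Ly6c1 without ZT12 mouse 1 or mouse 3 (0.25 to 0.30). The markers lower were 1 to 2 without any one of ZT0 mouse 3, ZT12 mice 2 and 3 and ZT24 mouse 1. With the 3 mice that stood apart left out, 1 of the 9 was lower and none higher. Of 10 astrocyte markers 2 were lower: Fabp7, the brain fatty-acid-binding protein, at 22.1, 21.3, 28.6 and 18.3 CPM against 27.98 to 49.6 CPM, median 42.2 (-0.84 ± 0.12, adjusted p = 0.000452), and the glial factor Sox9 (-0.31 ± 0.05). Fabp7 overlapped through ZT12 mouse 3 alone. Markers of neurons (10), microglia (8), mural cells (6), choroid plexus (6), blood (5), striatum (7), cortex and hippocampus (7) and thalamus (6) had no called member, although 4 thalamus markers were called higher without ZT12 mouse 4. All 7 striatum markers differed by less than 0 (median -0.45) and all 6 thalamus markers by more than 0 (median 0.61). The striatum markers summed to 214 to 256 CPM at ZT12, 243 to 504 CPM at ZT0 and 241 to 397 CPM at ZT24. The part of dissection in these differences was not tested. In the meninges 1 of 6 listed genes (16.7%), Slc6a13 (-0.54), was lower.

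Most genes of lipid synthesis were not called, and those called were higher. Of 23 cholesterol synthesis genes 8 were higher and none lower (median 0.13), and of 13 fatty acid synthesis genes 3 were higher and none lower (median 0.03). The shares called were 34.8% and 23.1%, beside 12.1% of all genes. Insig1, which retains the cholesterol sensor in the endoplasmic reticulum, rose by 0.33 ± 0.07, and the pathway enzymes Hsd17b7, Mvd and Hmgcs1 by 0.31 ± 0.10, 0.27 ± 0.06 and 0.22 ± 0.07. The call of Mvd was lost without ZT12 mouse 1 (0.24), that of Hsd17b7 without any one of ZT0 mice 1, 3 and 4, ZT12 mice 1 and 3 and ZT24 mice 1, 2 and 3 (0.24 to 0.33) and that of Hmgcs1 without any one of ZT0 mice 1, 3 and 4, ZT12 mice 1, 3 and 4 and ZT24 mice 1, 2 and 3 (0.13 to 0.25). Me1, the malic enzyme (0.20 ± 0.04), Acss2, the acetyl-CoA synthetase (0.17 ± 0.04), and the desaturase gene Fads1 (0.13 ± 0.03) had all ZT12 mice above all lights-on mice. The number of cholesterol genes higher was 3 to 5 without any one of ZT0 mice 3 and 4, ZT12 mice 1 and 3 and ZT24 mice 1, 2 and 3. No cholesterol gene and 1 fatty acid synthesis gene were called in the mice other than the 3 that stood apart. The ZT12 mice among these, 1 and 3, are those with the highest sums of oligodendrocyte markers, and the part of myelinating cells in the lipid genes was not tested.

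Of 24 genes tied to fasting, FOXO factors and fatty acid oxidation, 6 were higher and 3 lower (median 0.03). The share called was 37.5%, beside 12.1% of all genes. Txnip, which restrains glucose uptake, had 18.3, 26.9, 23.1 and 31.0 CPM against 11.5 to 21.3 CPM, median 18.8 (0.45 ± 0.13, adjusted p = 0.0402), and its call was lost without any one of ZT0 mice 1, 2 and 3, ZT12 mice 2, 3 and 4 and ZT24 mice 2 and 3 (0.34 to 0.48). Ppara, the nuclear receptor for fatty acids, rose by 0.33 ± 0.09 and lost its call without ZT12 mouse 1 (0.26). The FOXO target Sesn3 fell by 0.51, with NRF means of 24.5 CPM at ZT12, 29.4 CPM at ZT0 and 41.7 CPM at ZT24. Its call was lost with ZT0 alone as lights-on, with ZT0 and ZT24 pooled as 1 group and on log2 of the deposited value. The FOXO factor genes Foxo1 (-0.02) and Foxo3 (0.04) were not called. Of 10 thyroid hormone genes 2 were higher. Hr, the corepressor Hairless and a thyroid hormone target in brain, stood at 61.6, 48.9, 44.7 and 45.9 CPM against 22.5 to 36.8 CPM, median 30.3 (0.77 ± 0.11, adjusted p = 0.000563), and Klf9, which is on the glucocorticoid list too, at 110.2, 87.8, 98.8 and 91.7 CPM against 53.7 to 65.7 CPM (median 57.5). For both the ZT12 mice were above all lights-on mice. The fasting genes higher were 3 without any one of ZT0 mouse 3, ZT12 mouse 1 and ZT24 mice 2 and 3, and 3 were higher and none lower when the 3 mice that stood apart were left out. Both thyroid hormone genes were higher in that fit too.

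Most peptide and receptor genes of hypothalamic neurons were not called, and those called were lower. Of 15 suprachiasmatic peptides and factors 5 were lower and none higher (median -0.12), of 14 feeding peptides and receptors 3 were lower (median -0.07), and of 13 neuroendocrine peptides 2 were lower (median -0.15). These are 33.3%, 21.4% and 15.4% of the lists beside 12.1% of all genes called, and the feeding and neuroendocrine shares lie near that background. The anterior hypothalamus markers, several of them on the peptide lists too, had a median of -0.22 with 10 of 12 negative and 1 called lower, and summed to 636, 819, 484 and 571 CPM in the ZT12 mice against 595 to 871 CPM at lights-on. Of 9 arcuate and tuberal markers 2 were lower (median -0.18). The part of the dissected region in the peptide genes was not tested. Prok2, an output peptide of the suprachiasmatic clock, was at 2.36, 2.4, 2.27 and 1.99 CPM against 2.77 to 4.57 CPM, median 3.5 (-0.47 ± 0.07, adjusted p = 0.000836), with all ZT12 mice below the others. Its receptor gene Prokr2 (-0.28 ± 0.08), the peptide gene Nms (-0.40 ± 0.08), the transcription factor gene Six6 (-0.44 ± 0.09) and Gal (-0.21) were lower with overlapping groups, and Prokr2 lost its call without any one of ZT0 mice 1 and 4, ZT12 mice 1 and 2 and ZT24 mice 1, 3 and 4 (-0.23 to -0.29). Avp (160.5, 186, 90.4 and 109.7 CPM against 138 to 211 CPM, median 162, -0.30 ± 0.15), Vip (0.05) and Zfhx3 (-0.02 ± 0.05) were not called. Among feeding genes the neuropeptide Y receptors Npy1r (19.4, 19.4, 22.1 and 22.8 CPM against 23.7 to 29.8 CPM, median 25.7, -0.32 ± 0.07, adjusted p = 0.00814) and Npy2r (31.3, 37.2, 30.8 and 35.4 CPM against 37.5 to 44.8 CPM, median 41.7, -0.28 ± 0.06, adjusted p = 0.00909) were below every lights-on mouse. Pomc differed by -0.40 ± 0.10 and lost its call without ZT12 mouse 1 or mouse 3 (-0.30 to -0.36). The hunger peptides Agrp (-0.26) and Npy (-0.06), and Hcrt (0.16 ± 0.11) and Pmch (0.20 ± 0.12), were not called. Kiss1 (-0.36 ± 0.10) and Pdyn (-0.31) were the neuroendocrine genes called lower. Kiss1 lost its call without any one of ZT0 mice 1 and 4, ZT12 mice 1, 3 and 4 and ZT24 mice 1 and 2 (-0.27 to -0.36). The suprachiasmatic genes lower were 3 without any one of ZT0 mice 1 and 4, ZT12 mouse 1 and ZT24 mice 1 and 3, and the neuroendocrine genes lower were 0 to 6 without any one of ZT0 mice 1 and 4, ZT12 mice 1, 2, 3 and 4 and ZT24 mice 1 and 2. When the 3 mice that stood apart were left out, 1 suprachiasmatic and no feeding or neuroendocrine gene was lower. Of 23 immediate early genes 4 (17.4%) were called. Egr1 (0.50) and Dusp1 (0.31) were higher and Fosl2 (8.72, 8.35, 11.4 and 15.4 CPM against 15.3 to 23.0 CPM, median 17.8) and Nr4a3 (-0.60) were lower, and none of the 4 was called without those mice.

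Among intracellular pathways, 5 of 20 Hippo pathway genes (25.0%, beside 12.1% of all genes called) were lower and none higher (median -0.05). Wwtr1, which encodes the coactivator TAZ, fell from a lights-on range of 19.9 to 22.3 CPM (median 21.5) to 15.8, 15.1, 16.2 and 16.2 CPM without overlap (-0.41 ± 0.05, adjusted p = 8.01e-05), and the transcription factor gene Tead1, the scaffold gene Wwc1 and Yap1 fell by 0.29, 0.22 and 0.18. Tead1 lost its call without ZT12 mouse 1 or mouse 3 (-0.24), and Yap1 without any one of ZT0 mice 2 and 3, ZT12 mice 1, 2 and 3 and ZT24 mice 1, 2, 3 and 4 (-0.14 to -0.18). Of 48 proteasome genes 11 (22.9%) were higher and none lower, with a median of 0.06. The largest of these, Psmb10, an immunoproteasome subunit, rose by 0.28 ± 0.06 with all ZT12 mice (19.5, 23.9, 20.4 and 20.04 CPM) above the others (15.6 to 18.7 CPM, median 16.8). The Hippo genes lower were 2 to 3 without any one of ZT0 mice 2 and 3, ZT12 mice 1 and 3 and ZT24 mice 1, 2 and 3, and the proteasome genes higher 7 without ZT12 mouse 3. After leaving out the 3 mice that stood apart, 2 Hippo genes and 1 proteasome gene were called, and no proteasome gene was called against ZT0 alone. Of 36 SR and hnRNP splicing factors 7 were higher and 5 lower (33.3% called), the latter 2 to 3 without ZT12 mouse 1 or mouse 2. Hnrnpc, at 213, 194, 217 and 200.02 CPM against 251 to 306 CPM (median 265), and Hnrnpm, at 82.0, 79.7, 85.3 and 87.4 CPM against 99.4 to 114 CPM (median 104), were below every lights-on mouse (-0.39 ± 0.05 and -0.33 ± 0.04). The paraspeckle gene Pspc1 was above every one (0.23 ± 0.04). The splicing kinase gene Srpk1 (-0.27 ± 0.03) and the nucleolar gene Rbm28 (-0.51 ± 0.05) were lower without overlap.

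Few genes of energy supply and protein synthesis passed the test. Of 82 respiratory chain and ATP synthase subunits 1, Ndufb9 (0.20), was higher, as were 3 of 79 cytosolic ribosomal proteins, while 3 of 78 mitochondrial ribosomal proteins were higher and 2 lower. These shares, 1.22%, 3.8% and 6.41%, were below the 12.1% of all genes. Potassium and HCN channels (8 higher and 5 lower of 89) and receptors for GABA and glutamate (2 and 2 of 43) lay near it at 14.6% and 9.3%, and sodium and calcium channels (4 and 3 of 37) at 18.9%. These small counts moved with single mice: without ZT12 mouse 4, 13 respiratory chain genes, 8 cytosolic and 7 mitochondrial ribosomal genes were higher, and without ZT12 mouse 1 no sodium or calcium channel was. Against ZT24 alone 25 cytosolic ribosomal genes were higher, and against ZT0 alone none. Of 21 sleep-wake and monoamine receptor genes Hrh3 (0.27) and Htr2c (0.22) were higher, a share of 9.52%. Of 25 genes listed under amino acid breakdown 3 were higher: Pipox (0.33), Aldh6a1 (0.14) and Etnppl. That share, 12.0%, equals the background of all genes closely. Etnppl encodes a lyase of phosphoethanolamine, which is no amino acid.

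Several of the largest changes belonged to no list. Mmp14, a membrane-bound matrix metalloproteinase, had the largest fall, from a lights-on range of 29.1 to 36.8 CPM (median 35.2) to 13.1, 17.0, 14.3 and 14.5 CPM at ZT12 (-1.18 ± 0.07, adjusted p = 1.18e-07). Plekhf1, a lysosome-associated adaptor, gave 7.66, 7.43, 6.5 and 7.12 CPM against 1.98 to 3.6 CPM, median 2.64 (1.14 ± 0.08, adjusted p = 2.12e-06). Both were fully separated. Xdh, xanthine dehydrogenase, rose by 1.06 ± 0.13, Sfrp5, a secreted Wnt inhibitor, by 0.99 ± 0.11, and Arrdc2, an alpha-arrestin, by 0.81 ± 0.07, all without overlap. P4ha1, a collagen prolyl hydroxylase, the extracellular matrix gene Frem2, the adaptor gene Dok3 and the coiled-coil gene Ccdc190 fell by 0.56, 0.84, 0.71 and 0.73, each with all ZT12 mice below all others. Gpr179 (-0.75 ± 0.11) was likewise apart. Rab37, a small GTPase, was at 15.9, 5.88, 12.3 and 4.57 CPM against 2.71 to 8.46 CPM (median 3.51) and was highest in mice 1 and 3. It lost its call without any one of ZT0 mice 1, 3 and 4, ZT12 mice 1 and 3 and ZT24 mice 1, 2 and 3 (0.70 to 0.98). Tmem254c (11.1, 9.22, 1.84 and 4.27 CPM against 10.7 to 16.4 CPM, median 13.2) and Frmpd2 (2.7, 2.1, 2.21 and 4.14 CPM against 2.81 to 6.66 CPM, median 5.47) overlapped, the first has near-identical copies that make its counts uncertain, and the second lost its call without ZT12 mouse 3 (-0.65).

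DRF mice at the same clock times showed few of these changes. Between their ZT12 and lights-on groups 55 genes (0.341%) were higher and 79 (0.49%) lower. These counts came from the fit of 24 mice of both regimens, whereas the NRF counts above came from the 12 NRF mice alone. Of the 949 genes higher in NRF, 488 (51.4%, or 46.2% with library trends removed) were also positive in DRF, as were 52.2% of all genes, and 22 were called in the same direction and 14 in the opposite one. Of the 1004 lower genes 462 (46.0%) were also negative in DRF, with 19 called the same way and 11 the other way. Their median DRF differences were 0.0042 and 0.0106, beside 0.0048 over all genes. DRF mice 3 and 4 at ZT12 held striatum markers at 702 and 933 CPM, while the other DRF mice at these times held 239.5 to 405 CPM. For 1165 genes (7.22%) the difference itself depended on the regimen, and 385 of the higher and 411 of the lower genes were among them, which is in part fixed because the same NRF mice entered both tests. Without these DRF mice and the 3 NRF mice, 96 genes depended on the regimen.

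Core clock genes that passed the DRF test moved the same way under both regimens, but most did not pass it. In DRF 2 of 10 repressors and 2 of 8 bZIP factors and outputs were called higher, and 1 of 7 activators lower. In DRF, Dbp differed by 0.69, Per2 by 0.42, Per3 by 0.35 and Arntl by -0.22, all past the test. The median of the repressors was 0.17 in DRF and 0.39 in NRF, and 5 of 10 depended on the regimen, beside 7.22% of all genes. Per2 did not pass the test of dependence (difference of differences -0.02 ± 0.10, adjusted p = 0.93), and Dbp did (0.62 ± 0.10, adjusted p = 0.000508). Among the glucocorticoid-responsive genes, the DRF median was 0.01, and none was called higher in DRF and 5 were called lower. Of these 22 genes 12 depended on the regimen, beside the same 7.22%. Zbtb16 (0.49) and Tsc22d3 (0.28) had positive DRF differences that did not pass the test. Per1 is on both lists, and no test compared these genes with the clock genes. Sgk1 measured 33.1, 36.1, 88.9 and 56.2 CPM in the DRF ZT12 mice, 45.5, 65.4, 43.9 and 56.7 CPM at DRF ZT0 and 25.6, 51.8, 57.4 and 46.0 CPM at DRF ZT24. Its DRF groups overlapped, with a difference of 0.06 (difference of differences 1.69 ± 0.28, adjusted p = 0.000834). Hif3a differed by 0.11 in DRF (2.36 ± 0.18, adjusted p = 1.09e-07).

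Some genes were called in opposite directions by regimen. Mt2 was at 90.5, 87.2, 102 and 94.2 CPM in DRF mice at ZT12, at 144, 113, 144 and 161 CPM at ZT0 and at 130.4, 158, 113 and 120.1 CPM at ZT24, a difference of -0.52 where NRF gave 0.72. The difference of Hr was -0.61 in DRF against 0.77 in NRF, Mt1 -0.39 against 0.59, Etnppl, an astrocytic lyase of phosphoethanolamine, -0.39 against 0.47, Psmf1, a proteasome inhibitor, -0.21 against 0.19, and Dnaja4 0.21 against -0.37. Each was called in both regimens and in the test of the difference. Heat-shock genes had a DRF median of 0.11 with no member called in DRF, and 15 of 24 depended on the regimen, beside 7.22% of all genes. Rbm3 (-0.11 in DRF) and Cirbp (-0.20) depended on it as well. Chaperones of the endoplasmic reticulum had a DRF median of 0.07, and 11 of 19 depended on the regimen, beside the same 7.22%. Cldn5 fell in both regimens (-0.41 in DRF, adjusted p = 0.00501), by more in NRF (-0.66 ± 0.10, adjusted p = 0.000295).

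**Figure D4:**
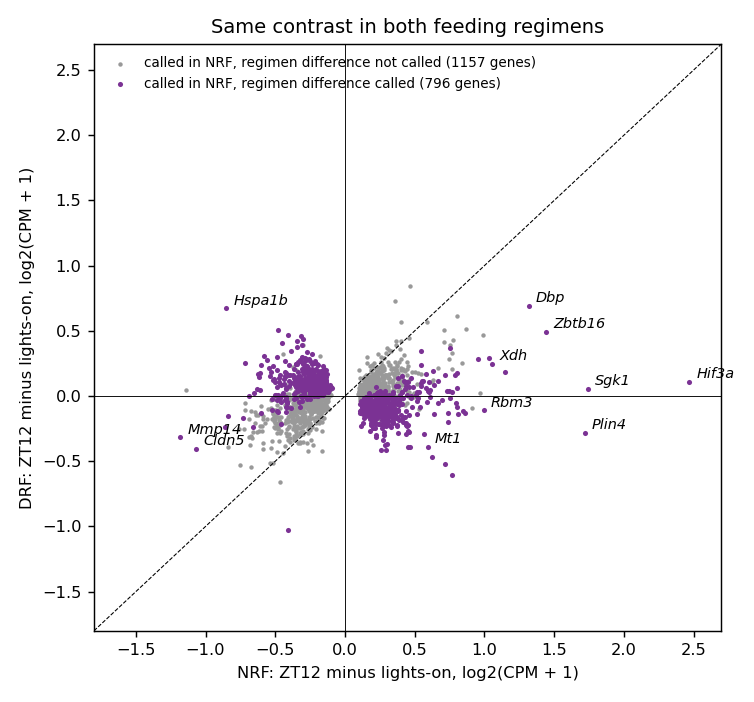
ZT12 minus lights-on in DRF (vertical) against the same in NRF (horizontal), both in log2(CPM + 1), 1 point per gene called in NRF, with the dashed line marking equal differences. Points spread along the horizontal axis, with Dbp (1.32 in NRF and 0.69 in DRF) in the upper right and Mt1 below 0 in DRF.

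Over the whole NRF day, ZT12 was the extreme of the group means for 585 of the 949 higher and 615 of the 1004 lower genes. ZT8 was the extreme for 210 and 248 of them and ZT16 for 93 and 68. In NRF, mean CPM of Sgk1, Hif3a, Dbp and Rbm3 was highest at ZT12, whereas Plin4 was highest at ZT16. These other times entered no test, and the ZT12 mice of the call are among the points. The plot of mean CPM by time shows the courses in both regimens.

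**Figure D5:**
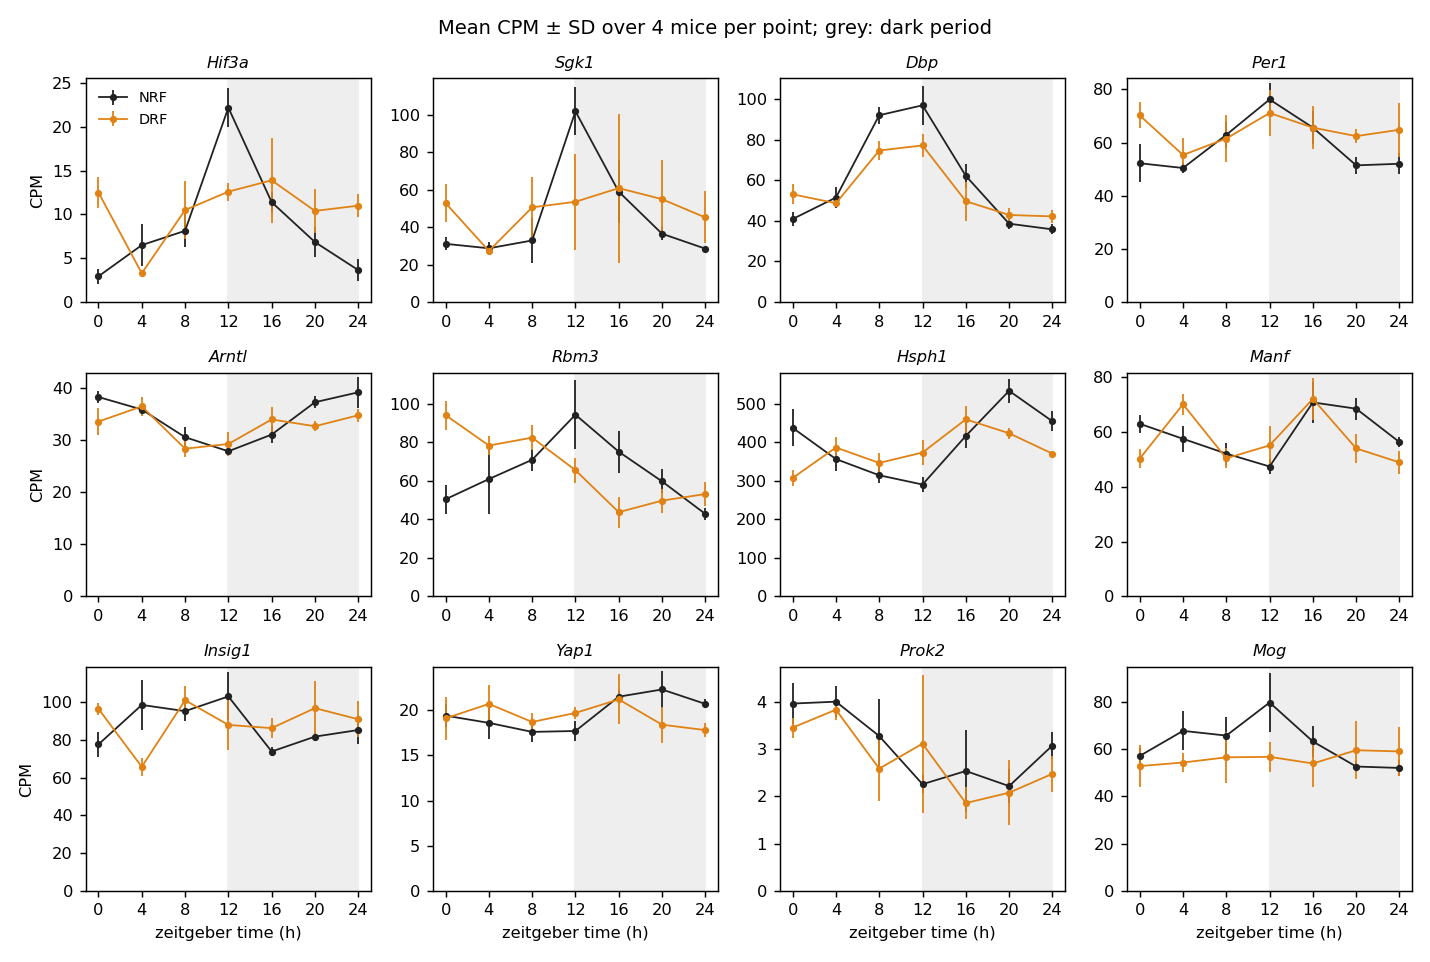
Mean CPM ± SD of 4 mice (vertical) against zeitgeber time (horizontal, h) in NRF and DRF for genes named in the text, with the dark period in grey. In NRF the mean of Sgk1 and of Dbp was highest at ZT12.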

How the data were processed

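RNA sequencing of polyadenylated RNA from the dissected anterior hypothalamus of 56 mice was read from 1 table of 17564 genes by NCBI Gene ID, of which 17456 matched a symbol in RefSeq (GRCm38.p6). According to the study's methods and the submitters' processing notes, the authors cleaned reads, mapped them with HISAT2 and Bowtie2 to GRCm38.p6, estimated expression with RSEM, applied TMM normalization (trimmed mean of M-values) in edgeR and converted the result to TPM, and their rhythm analysis left out genes under a value of 1 in over 20% of samples. The deposited values are treated as a score: each further read adds less to them, and their steps are those of log2(CPM + 1) per base of transcript, brought to a common sum. Lengths from the GENCODE annotation, or found by search, resolved 15161 genes as whole reads, with 99.9% of their values under 20000 reads whole within 0.05, and a further 2019 as reads with 2 decimals. Undoing these steps gave log2(CPM + 1) for the genes with a length, which include every gene tested, with CPM as its antilog minus 1. The strand setting of the counting is not given in the sources used here.

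Genes entered the tests when 80% or more of the mice had a deposited value of 1 or higher. limma 3.58.1 (R 4.3.3) fitted 1 mean per time point to the 12 NRF mice, with moderated variances that follow mean level, and tested ZT12 minus the mean of ZT0 and ZT24. p-values were adjusted by Benjamini-Hochberg over 16133 genes with a threshold of 0.05, and ± denotes the standard error (SE) of the difference. Dependence on regimen was the interaction in a fit of 24 NRF and DRF mice, which also gave the DRF differences and calls. The count test of RNA-seq was replaced by limma on these values because the deposited unit is no count, and limma's voom on the recovered reads was an alternative. The fit was tested on simulated data. Genes named were, among called genes with a mean log2(CPM + 1) of at least 2, the 12 largest differences and 6 smallest p in each direction, the 10 smallest interaction p, all clock list members, and of every other list up to 4 called and 2 uncalled members. The text leaves out 3 genes that this rule names, which are not reported here. Gene names outside this rule were chosen after their values were seen. Gene lists, members and tests were chosen with earlier results of these data known. The labels do not say that replicate numbers pair mice across groups, and separate mice are the replicates. Coordinates come from the annotation and promoter windows from RefSeq, both GRCm38.p6. Alternatives covered the fit, lights-on group, filter, scale, pseudocount, normalization, variance model and single mice.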

Additional observations from a re-analysis of the deposited data

Results flagged for a closer look

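In 20 of 357 groups of 4 NRF mice examined for the named genes, 1 mouse lay far from the other 3 by Dixon's test, and chance gives about 1 in 20 such groups. The values of the distant mouse were, at ZT12, Ciart (18.3 CPM), Cldn5 (15.2 CPM), Arntl2 (8.45 CPM), Zfhx3 (65.8 CPM), Sel1l (264 CPM), Psmf1 (49.4 CPM) and Foxj1 (23.7 CPM). At ZT0 they were Mt1 (158 CPM), Nr1d2 (125 CPM), Sel1l (239 CPM), Hnrnpm (114 CPM), Psmb3 (50.6 CPM) and Sox9 (42.7 CPM), and at ZT24 Cldn5 (30.7 CPM), Dnah6 (10.5 CPM), Mt1 (179 CPM), Six6 (9.81 CPM), Avp (176 CPM), Pspc1 (48.2 CPM) and Rarres2 (10.8 CPM).

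For 59 of the 119 named genes the ZT12 difference depended on the regimen (limma interaction, adjusted p under 0.05 over all genes), beside 7.22% of all genes. That count is in part fixed by the naming. The rule names the 10 genes with the smallest interaction p, and others for their NRF difference, which is part of the interaction. The difference of differences, NRF minus DRF on the log2(CPM + 1) scale, was positive for Hif3a (2.36), Plin4 (2.0), Sgk1 (1.69), Hr (1.37), Mt2 (1.24), Rbm3 (1.10), Mt1 (0.98), Plekhf1 (0.96), Zbtb16 (0.95), Arrdc2 (0.95), Cirbp (0.94), Etnppl (0.85), Txnip (0.84), Xdh (0.81), Ciart (0.74), Tsc22d3 (0.67), Dbp (0.62), Aspa (0.57), Klf9 (0.56), Mog (0.50), Per1 (0.47), Insig1 (0.43), Pspc1 (0.40), Psmf1 (0.40), Slco1a4 (0.35), Nr1d1 (0.31), Pdgfra (0.31), Psmb10 (0.25), Bhlhe41 (0.24), Psma7 (0.22) and Per3 (0.20). It was negative for Hspa1b (-1.52), Dok3 (-0.97), Hspa1a (-0.89), Mmp14 (-0.86), P4ha1 (-0.84), Sdf2l1 (-0.84), Chordc1 (-0.80), Hsph1 (-0.76), Frem2 (-0.68), Cldn5 (-0.66), Pdia4 (-0.64), Rbm28 (-0.63), Npy1r (-0.60), Gpr17 (-0.59), Dnaja4 (-0.57), Ccdc190 (-0.56), Foxj1 (-0.55), Manf (-0.47), Hnrnpm (-0.45), Nfil3 (-0.41), Srpk1 (-0.41), Pdia6 (-0.38), Hspe1 (-0.35), Wwtr1 (-0.33), Wwc1 (-0.31), Hnrnpc (-0.30), Yap1 (-0.27) and Arntl (-0.24). Each of these values was measured with the same 4 NRF mice at ZT12 that served for the call.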

How the results depend on the processing

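No called gene among the 100 named reversed under any alternative, and 80 kept their call whichever single mouse was left out. The call was lost by 28 of the 100 with ZT0 alone as lights-on (Me1, Wwc1, Psmb10 and Tmem254c among them), by 19 with ZT24 alone, by 17 on log2 of the deposited value (Tmem254c in both), by 11 with ZT0 and ZT24 pooled as 1 group, and by 0 to 6 in the other alternatives that kept every mouse. Against ZT0 alone 288 genes were higher and 304 lower. With trends of length, GC content and level removed from each library the counts were 1438 and 1552, with 257 between ZT24 and ZT0 and 1894 depending on regimen, and 1876 of the 1953 calls were shared. Leaving out the mice high in thalamus or striatum markers, an alternative chosen after seeing the data, gave 216, 175, 59 and 96, and 40 named genes lost their call. ZT24 against ZT0 gave 1639 genes with all NRF mice in the fit, 116 with no variance trend, and 0 on the log2 deposited value by limma (4170 at an unadjusted p under 0.05). Leaving out single mice gave 578 to 1311 higher (lowest without ZT12 mouse 1, 612 without mouse 3), 588 to 1431 lower (lowest without mouse 1, 592 without mouse 3), 12 to 1759 between ZT24 and ZT0 (lowest without ZT24 mouse 3, under 50 also without ZT0 mouse 1 or 2 or ZT24 mouse 2 or 4, 494 without ZT0 mouse 4, 479 without ZT24 mouse 1, highest without ZT12 mouse 2) and 741 to 1572 depending on regimen (lowest without NRF ZT12 mouse 3, 775 without DRF ZT12 mouse 4). The replicate block gave 841 higher, 912 lower, 892 between ZT24 and ZT0 and 1085 depending on regimen, and same-numbered mice correlated at -0.246 to 0.194, so the numbers share only a label. voom on recovered reads, also added after seeing the data, gave 958, 963, 918 and 1182. Only uncalled genes changed sign. On ZT0 alone Rorb was 0.0431, Zfhx3 0.16 and Hcrt -0.0311. On ZT24 alone Rgs16 was -0.0411 and Nr3c1 -0.0638. With library trends removed Rorb was 0.0054 and Zfhx3 0.0407, and on the deposited value Nr3c1 was -2.3e-05. Without the mice that stood apart Arntl2 was 0.0153, Rgs16 -0.22 and Nr3c1 -0.0421. Leaving out single mice gave Arntl2 -0.0821 to 0.0103, Rorb -0.11 to 0.0491, Nampt -0.0265 to 0.0701, Rgs16 -0.13 to 0.27, Zfhx3 -0.043 to 0.0369 and Nr3c1 -0.0385 to 0.0631. The cause of these shifts was not tested.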

Other observations

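Genes of motile cilia that were on no list were looked up after the fall of Dnah6 had been seen, so their counts are a description. Of 12 axonemal dynein heavy chain genes, the motors of beating cilia, 6 were lower at lights-off in NRF mice (Dnah6, Dnah12, Dnah9, Dnah2, Dnah11 and Dnah5) and none was higher, beside 6.22% of all genes lower, with a median difference of -0.49 and a range of -0.76 to 0.11 on the log2(CPM + 1) scale. Of 30 genes for cilia and flagella associated proteins 13 were lower and 1 higher, with a median of -0.23. Without the 3 mice that stood apart no gene of either family was called (limma), 3 of the dyneins and 9 of the others had an unadjusted p under 0.05, and the medians were -0.29 and -0.13. In DRF mice the medians were -0.21 and -0.10, and none of the dyneins depended on the regimen. The summed ependymal markers were lowest in the ZT12 mice with the most thalamus RNA, as given above, and the part of dissection in these counts was not tested.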
